A study of Mus musculus with 8 samples.

Results

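The creatine kinases Ckm, Ckmt2 and Ckb, the creatine transporter Slc6a8, the mitochondrial carriers Slc25a3, Slc25a4 and Slc25a5 and the adenylate kinase Ak1 were followed in the hearts of wild-type and Taz-KO mice. They are 8 of the 32285 genes counted and were chosen by function, as proteins that move high-energy phosphate between mitochondria and sites of ATP use, several of which bind cardiolipin. The choice was made with earlier results of these data known. Single-nucleus RNA-seq (snRNA-seq) was run on whole hearts of 4 wild-type (WT) and 4 Taz-KO male mice of 9 weeks, 1 library per mouse, from nuclei released from cryopreserved tissue. The label of the knockout mice is KO and that of the controls WT. The study's methods say that the Taz-KO line was described before, and the construction of its allele, the strain and any treatment common to both groups are not given in the sources used here. Nuclei were typed by markers as cardiomyocytes (CMs; led by Ryr2 and Ttn), fibroblasts (FBs; Pdgfra and Bicc1), endothelial cells (ECs; Ptprb and Flt1) or macrophages (MACs; F13a1 and Mrc1), and the UMIs (unique molecular identifiers, each a counted RNA molecule) of each type were summed per mouse. Levels are given as CPM, counts scaled so that all genes outside the mitochondrial genome have the same total in each cell type of each mouse. CPM is not scaled to gene length, so levels are compared between mice and cell types and not between genes. The shares and ratios of genes given below are not scaled to length either. They too are compared between mice and cell types.

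Tafazzin, the product of Taz, remodels cardiolipin, the phospholipid that marks the inner mitochondrial membrane. In the heart, ATP made in mitochondria leaves the matrix through the adenine nucleotide carriers, which exchange it for ADP, and phosphate enters through the phosphate carrier. Mitochondrial creatine kinase sits between the inner and outer membranes, where it passes the phosphate of new ATP to creatine. Cytosolic creatine kinase turns the phosphocreatine back into ATP at myofibrils and ion pumps, and adenylate kinase recovers ATP from ADP with the release of AMP.

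On GRCm38 with GENCODE vM21 gene models, Ckm, the muscle form of cytosolic creatine kinase, lies at chr7:19404776-19422841 on the plus strand. Ckmt2, the sarcomeric mitochondrial form, lies at chr13:91853387-91876885 on the minus strand, and Ckb, the brain form, at chr12:111669361-111672338 on the minus strand. Slc25a4, the adenine nucleotide carrier of heart and skeletal muscle, lies at chr8:46206797-46211284 on the minus strand, and Slc25a3, the phosphate carrier, at chr10:91116574-91124059 on the minus strand. Ak1, the cytosolic adenylate kinase of muscle, lies at chr2:32621758-32635058 on the plus strand. Slc25a5, the adenine nucleotide carrier of most other tissues, lies on the X chromosome at chrX:36795651-36798807, and Slc6a8, which takes up creatine from blood, at chrX:73673150-73682502, both on the plus strand. Taz itself is at chrX:74281912-74290151, so that 599 kb separate the end of Slc6a8 from the start of Taz. The antisense gene A930016O22Rik overlaps 3952 bases of Ckm, 1700119I11Rik overlaps 613 bases of Ckmt2, and Dnase1l1 overlaps 426 bases of Taz. How strand was used in counting is not given in the sources used here, so reads of such a pair may not be told apart. Near-copies of Ckb and Slc25a5 in the annotation (Ckb-ps1, Ckb-ps2 and Slc25a5-ps) were not analysed here.

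The windows of 250 bases before a start site are shown for the member called in CMs (Ak1), for a member whose median level was highest in CMs (Ckmt2) and for the carrier whose share was compared (Slc25a5), from RefSeq promoters on GRCm38.p6, 5′ to 3′ on the strand of the gene. RefSeq windows matched 7 of the 8 members, all except Slc6a8, with 10 windows in all, 4 of them of Ak1, for which the window at the start of the gene is shown. The windows printed hold no exon base. Capitals mark matches, on either strand, to AAGGTCA (read by estrogen-related receptors), to CANNTG (the E-box) or to GGGCGG (the GC box).
Ak1 (chr2:32621508-32621757, plus strand): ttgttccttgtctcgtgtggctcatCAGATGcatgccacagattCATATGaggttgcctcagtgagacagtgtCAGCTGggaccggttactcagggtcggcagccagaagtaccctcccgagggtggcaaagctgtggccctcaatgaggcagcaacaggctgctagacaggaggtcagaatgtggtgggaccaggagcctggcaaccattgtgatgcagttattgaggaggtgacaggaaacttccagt
Ckmt2 (chr13:91876886-91877135, minus strand): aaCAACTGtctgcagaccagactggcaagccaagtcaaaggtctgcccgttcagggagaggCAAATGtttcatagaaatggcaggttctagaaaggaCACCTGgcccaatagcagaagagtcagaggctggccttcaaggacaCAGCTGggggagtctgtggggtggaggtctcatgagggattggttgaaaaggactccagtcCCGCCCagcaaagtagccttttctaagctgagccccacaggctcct
Slc25a5 (chrX:36795347-36795596, plus strand): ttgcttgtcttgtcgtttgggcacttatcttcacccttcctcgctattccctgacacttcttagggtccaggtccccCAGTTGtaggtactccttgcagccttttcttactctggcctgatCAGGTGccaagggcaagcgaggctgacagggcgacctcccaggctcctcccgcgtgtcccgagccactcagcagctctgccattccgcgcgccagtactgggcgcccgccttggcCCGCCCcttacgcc
The Ak1 window held 3 E-boxes. AAGGTCA matched in 1 of the 4 Ak1 windows, not the one shown, which starts inside the gene at chr2:32628140-32628389, and in no window of another member. The Ckmt2 window held 4 E-boxes and 1 GC box, and the Slc25a5 window 2 E-boxes and 1 GC box. Of 32851 promoter windows of this length, 4.08% held AAGGTCA, 66.2% an E-box and 32.7% a GC box. TGATGNAA (the ATF4 element), found in 3.45% of all windows, and GCGCATGC (the NRF1 site), found in 2.26%, matched in 0 of the 10 windows of the members. CANNTG reads the same on both strands, so each E-box counts once. These matches describe letters in a window.

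After filters, 151264 nuclei remained, 3378 to 32677 per mouse, with 17733373 to 302227882 UMIs per mouse, mitochondrial genes included. CMs were 30586 nuclei in 8 clusters, 230 to 7736 per mouse. FBs were 38207 nuclei, ECs 20879 and MACs 14240, and 36758 nuclei (24.3%) stayed unnamed. The study's methods state fewer nuclei used per heart than the barcodes kept in 6 of the libraries, so some of the barcodes called nuclei here may not be single nuclei. The 8 CM markers summed to a median of 56049 CPM in CMs and to 9915 CPM in FBs, 12121 CPM in ECs and 10430 CPM in MACs, so CM RNA was present in the sums of every type. Each marker of each list was detected in the sums. Taz-KO replicates 4685 and 5301 gave the fewest nuclei. Mitochondrial genes took between 0.536% (Taz-KO replicate 5301) and 16.1% (WT replicate 4909) of the UMIs of CMs. Pairs of libraries shared 2 to 294 cell barcodes, at most 1.05% of the smaller library. Taz, the targeted gene, was at 53.1, 49.1, 54.3 and 48.7 CPM in CMs of WT replicates 4686, 4909, 5355 and 5356 and at 42.7, 37.9, 28.4 and 31.5 CPM in Taz-KO replicates 4685, 4910, 5300 and 5301, an order of mice kept in the lists of values that follow. Every Taz-KO mouse was below every WT mouse, here and in FBs, ECs and MACs. Taz fell in CMs, with a log2 fold change of -0.66 (SE 0.17, edgeR adjusted p = 0.0228). The call was lost without WT replicate 4686 (-0.67, adjusted p = 0.0542) and after an assumed ambient share of 0.2 was subtracted (-0.60, adjusted p = 0.0764).

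The first comparison asked whether the transcripts of energy transfer differed between Taz-KO and WT CMs. Ak1 fell in Taz-KO CMs and was the only 1 of the 8 members called at an adjusted p under 0.05 by edgeR, where 15.4% of the 18556 genes tested were called. Ckm and Slc25a4 had fold changes of the same size as Ak1 but a wider spread between mice, and did not pass. No member was called higher. For 0 of the 8 members did the CPM of WT and Taz-KO mice not overlap, against 22.1% of all genes tested. All 8 members passed the filter on low counts.

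Among the creatine kinases, Ckm was at 306, 380, 274 and 120 CPM in WT CMs and at 145, 192, 233 and 98.2 CPM in Taz-KO CMs. WT replicate 5356 lay below the other WT mice and below all Taz-KO mice except replicate 5301. The log2 fold change of Ckm was -0.81 (SE 0.30, edgeR adjusted p = 0.103). Ckmt2 was at 1166, 1015, 1027 and 714 CPM in WT and at 669, 872, 840 and 815 CPM in Taz-KO. WT replicate 5356 again was the lowest WT mouse and fell within the Taz-KO range, and the fold change was -0.39 (SE 0.20, edgeR adjusted p = 0.232). Ckb, which is low in CMs, was at 15.8, 31.5, 22.6 and 7.59 CPM in WT and at 21.2, 16.3, 24.8 and 0.762 CPM in Taz-KO. The last of these values rests on 7 UMIs in Taz-KO replicate 5301. With a fold change of -0.44 (SE 0.68, edgeR adjusted p = 0.741), the spread of Ckb between mice was larger than its difference between genotypes.

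Slc6a8, the route by which creatine enters the cell, was at 34.2, 30.8, 31.4 and 22.3 CPM in WT CMs and at 36.5, 30.4, 41.4 and 39.2 CPM in Taz-KO CMs. Of the Taz-KO mice, 3 lay above all WT mice and replicate 4910 lay within them. The log2 fold change was 0.20 (SE 0.16, edgeR adjusted p = 0.459).

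Of the mitochondrial carriers, Slc25a3 was at 338, 352, 361 and 187 CPM in WT CMs and at 324, 325, 421 and 189 CPM in Taz-KO CMs. Its lowest values in both genotypes came from WT replicate 5356 and Taz-KO replicate 5301, and the log2 fold change was -0.11 (SE 0.22, edgeR adjusted p = 0.822). Slc25a4 was at 850, 986, 1156 and 320 CPM in WT and at 516, 610, 687 and 250 CPM in Taz-KO. Apart from WT replicate 5356, every WT mouse was above every Taz-KO mouse, and the log2 fold change was -0.80 (SE 0.35, edgeR adjusted p = 0.161). Slc25a5, the other adenine nucleotide carrier, ran the opposite way in the fit. It was at 36.1, 44.5, 43.9 and 11.8 CPM in WT and at 66.1, 60.8, 82.3 and 16.7 CPM in Taz-KO. All Taz-KO mice except replicate 5301 were above all WT mice, and the log2 fold change was 0.59 (SE 0.45, edgeR adjusted p = 0.458).

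Ak1 was at 49.3, 63.6, 54.6 and 39.4 CPM in WT CMs and at 35.3, 29.7, 43.7 and 19.9 CPM in Taz-KO CMs. The groups overlapped only in that Taz-KO replicate 5300 lay above WT replicate 5356. The mean was 51.7 ± 10.1 CPM in WT and 32.1 ± 9.96 CPM in Taz-KO (SD, n = 4 each), and the log2 fold change was -0.82 (SE 0.17, edgeR adjusted p = 0.00971).

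**Figure D1:**
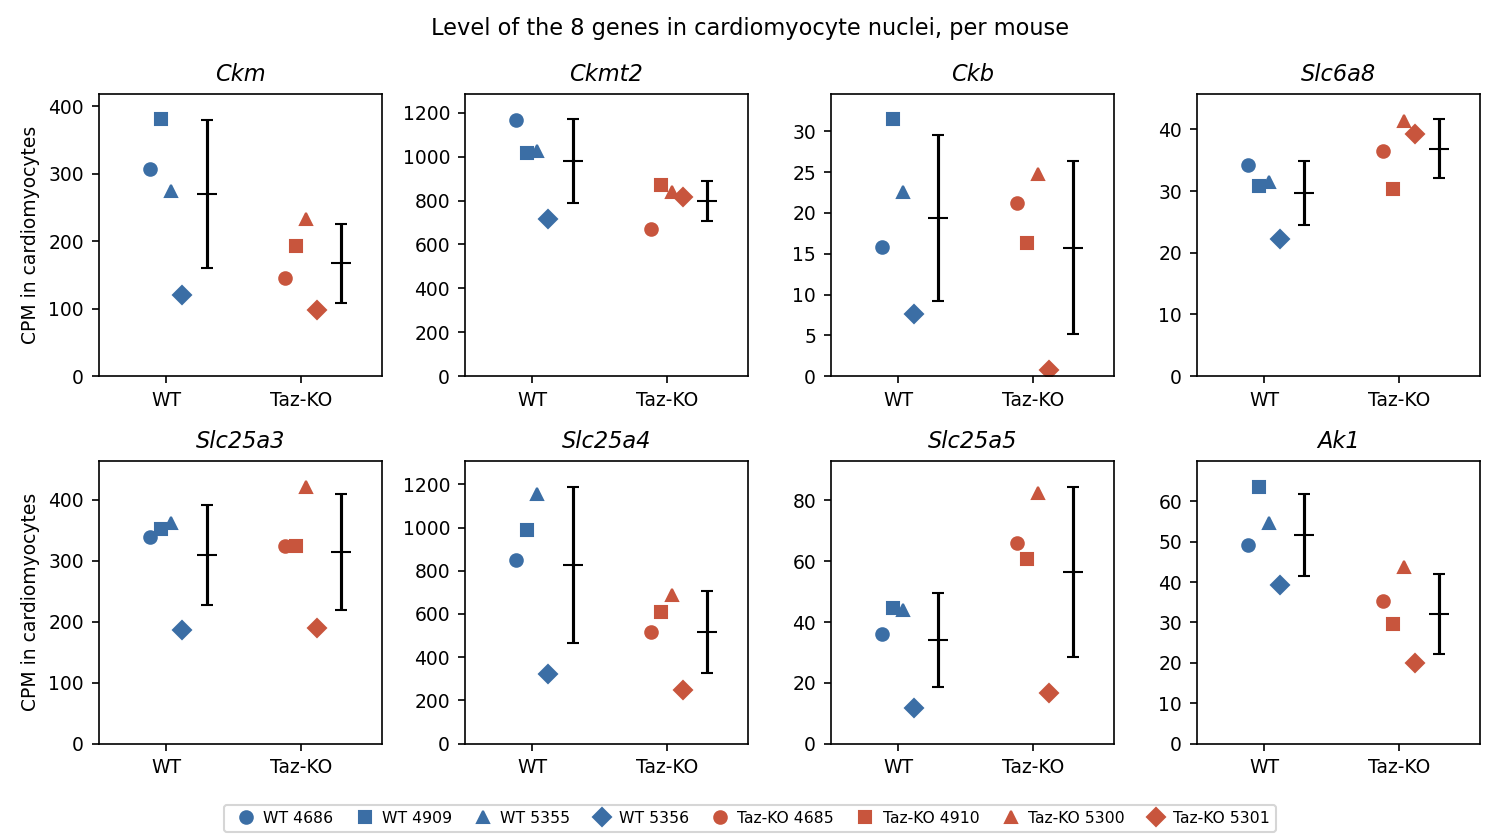
Level of each of the 8 genes in CM nuclei (y axis, CPM, from 0) in the 4 WT (blue) and 4 Taz-KO (red) mice, 1 point per mouse, with the mean and SD of each genotype as a black bar. WT replicate 5356 and Taz-KO replicate 5301 (diamonds) lie lowest in their genotype for Ckm, Ckb, Slc25a3, Slc25a4, Slc25a5 and Ak1, and the genotypes overlap in every panel.

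The number of members called changed with WT replicate 5356, with the tool, with the threshold and with 1 way of subtracting ambient RNA. Without WT replicate 5356, 3 members were called, as Ckm (-1.04, edgeR adjusted p = 0.0206) and Slc25a4 (-1.06, adjusted p = 0.0326) joined Ak1, in a fit that called 11.9% of all genes. DESeq2 called 2, Ckm (adjusted p = 0.0426) and Ak1 (adjusted p = 0.000357), and 16.6% of all genes to which it gave an adjusted p. At an adjusted p under 0.001 with an absolute log2 fold change over 0.58, edgeR called 0 members and 2.17% of all genes. With the log2 mitochondrial share of each CM sum as a covariate, where 12.4% of all genes were called, Ak1 was again the 1 member called (-0.65, adjusted p = 0.0282), Ckm moved to -0.48 (adjusted p = 0.306) and Slc25a4 to -0.43 (adjusted p = 0.444). Slc25a5 moved to 1.09 (SE 0.38, adjusted p = 0.0980) and Ckb to 0.30 (adjusted p = 0.799). After an assumed ambient share of 0.2 was subtracted, these went the other way, Slc25a5 to 0.09 (adjusted p = 0.955) and Ckb to -1.20 (adjusted p = 0.741), and Ak1 was still called (-1.03, adjusted p = 0.00807), as were 11.4% of all genes. When an ambient share taken from mitochondrial UMIs was subtracted, 0 of the 7 members tested were called, where 17.1% of all genes were (Ckb did not pass the filter). Ak1 was then at -0.93 (edgeR adjusted p = 0.195), and Ckm (0.09), Slc25a3 (0.15) and Slc25a4 (0.27) changed sign. Slc25a5 was at 1.655 (edgeR adjusted p = 0.568) in that fit, so the 2 subtractions moved it opposite ways. Some marker lists of other cell types also differed between genotypes within the CM sums. The 6 smooth muscle markers summed to 18.8 to 65.2 CPM in WT and 69.2 to 245 CPM in Taz-KO CMs, and the 6 B-lymphocyte markers to 26.5 to 36.1 CPM and 11.8 to 21.9 CPM. For every other cell type with a marker list the ranges in CMs overlapped. The 8 fibroblast markers summed to 924 to 4566 CPM in WT and 269 to 3236 CPM in Taz-KO CMs. Those of the 8 endothelial markers were 344 to 518 CPM and 163 to 535 CPM. The smooth muscle ranges overlapped in FBs, ECs and MACs, and the B-lymphocyte ranges in MACs alone of these. The part of the markers in the differences of the members was not tested.

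The balance between the adenine nucleotide carriers was also compared. Slc25a5 made up 3.90% ± 0.357 of the UMIs of Slc25a4 and Slc25a5 together in WT CMs and 9.34% ± 2.27 in Taz-KO CMs (SD, n = 4 each), 2.39-fold more, with no overlap of mice. The difference did not pass after adjustment over the 3 shares tested, and it fell to 2.45 or 2.30 percentage points, with overlapping mice, when ambient RNA was subtracted in either of the ways given below. Such a share does not change with the scaling of a library. Slc25a4 is the form of mature heart and Slc25a5 that of most other tissues, and the share describes how the counted UMIs divided between these paralogs.

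The share was 4.08%, 4.31%, 3.66% and 3.55% in the WT mice and 11.3%, 9.06%, 10.7% and 6.24% in the Taz-KO mice. Every Taz-KO mouse was above every WT mouse, and Taz-KO replicate 5301, with 2450 UMIs of the pair, was the closest to WT. Its 95% Wilson interval of 5.35% to 7.27% did not reach the highest WT interval of 4.17% to 4.46%. These intervals cover counting error only. The difference of 5.44 percentage points had p = 0.0286 in an exact 2-sided permutation test, the smallest that the 70 groupings of the mice can give, and p = 0.0857 after Benjamini-Hochberg adjustment over the 3 shares tested. In this design 1 share alone cannot go below 0.0857 after that adjustment. Without Taz-KO replicate 5301 the difference was 6.47 points and the exact permutation p = 0.0286, again the smallest possible. Its adjusted p of 0.0429 was lower only because the Ckb share then reached the same smallest exact p.

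The Slc25a5 share was also higher in Taz-KO mice in nuclei that were not CMs and in the barcodes with the fewest UMIs, where it was not tested. In FBs it was 3.89% to 5.95% in the WT mice and averaged 10.8% ± 2.19 in the Taz-KO mice. In ECs it was 3.86% to 5.77% in WT and reached 15.5% in Taz-KO, and in MACs it was 4.33% to 6.03% in WT and 10.1% to 17.9% in Taz-KO. In the barcodes with the fewest UMIs, a share of 0.1 of each library, it was 4.38% ± 0.503 in WT and 12.2% ± 1.43 in Taz-KO (SD, n = 4 each). The genotypes overlapped in none of these 4 sets and in mesothelial cells alone among the other named types, where Taz-KO replicate 5301, at 3.23%, had 31 UMIs of the pair. Whether these barcodes are nuclei or empty droplets is not settled by the files, and some of them are in named types, so their profile may hold RNA of nuclei as well as ambient RNA. After 0.2 of the UMIs of the CMs were subtracted as ambient RNA with the profile of those barcodes, the share was 3.51% in WT and 5.95% in Taz-KO CMs, a difference of 2.45 points with overlapping mice (exact permutation p = 0.200). After the subtraction based on mitochondrial UMIs it was 1.61% and 3.91% in 7 mice, a difference of 2.30 points, again with overlap (exact permutation p = 0.229).

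**Figure D2:**
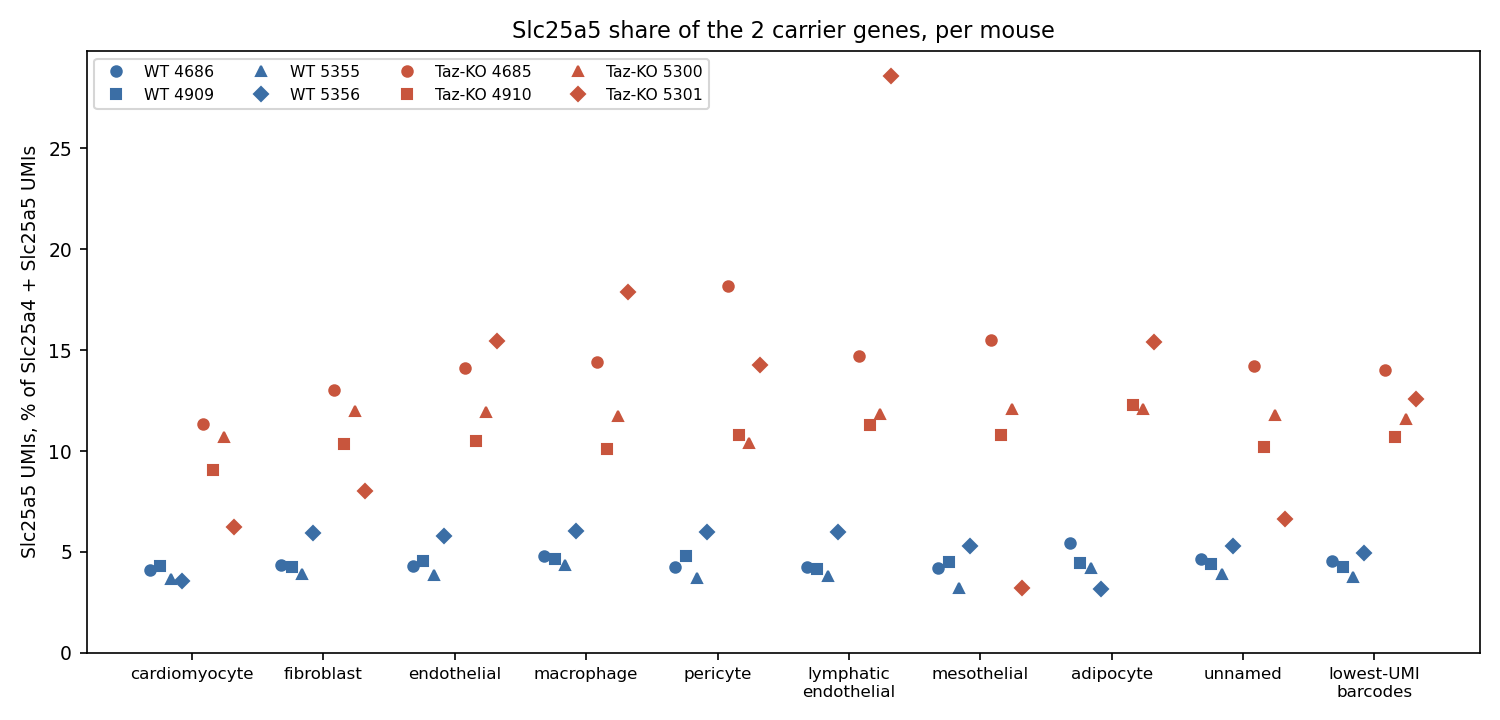
Slc25a5 UMIs as a percentage of Slc25a4 and Slc25a5 UMIs (y axis) in each named cell type, in unnamed nuclei and in the barcodes with the fewest UMIs (x axis), 1 point per mouse, WT in blue and Taz-KO in red. The Taz-KO points lie above all WT points of the same set except in mesothelial cells, where Taz-KO replicate 5301 is at 3.23%, and adipocytes have 7 mice.

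Within CMs the shift was not limited to 1 cluster. In 6 of the 8 CM clusters, with 2 to 4 mice per genotype, the Slc25a5 share of the Taz-KO mice lay above that of all WT mice. In cluster 6 it was 3.12% to 4.21% in WT against 5.37% to 10.6% in Taz-KO. In cluster 10 it was 3.90% to 4.81% in WT against 7.89% to 13.5% in Taz-KO. The median nucleus had 6.13% mitochondrial UMIs in cluster 6 and 19.6% in cluster 10, the highest of the CM clusters. In cluster 3, the largest CM cluster with 12642 nuclei, the lowest Taz-KO mouse, at 3.55%, lay below the WT range of 3.63% to 4.44%. In cluster 19 the lowest Taz-KO mouse, at 3.08%, lay within the WT range. Clusters 15 and 32 held mostly Taz-KO nuclei, 1913 of 2345 and 352 of 462, so CMs of the genotypes did not fall on the clusters in the same proportions. The cluster genes were chosen without the 8 members.

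The other shares overlapped between genotypes. Ckb made up 4.90%, 7.65%, 7.63% and 5.95% of Ckm and Ckb UMIs in WT CMs and 12.8%, 7.82%, 9.64% and 0.770% in Taz-KO CMs. The low value of Taz-KO replicate 5301 rests on the 7 Ckb UMIs named above, and the difference of 1.21 percentage points had an exact permutation p = 0.686. Without that mouse it was 3.54 points with no overlap (exact permutation p = 0.0286, the smallest possible). Ckmt2 made up 79.2%, 72.7%, 79.0% and 85.6% of Ckm and Ckmt2 UMIs in WT and 82.2%, 81.9%, 78.3% and 89.2% in Taz-KO. The means of 79.1% ± 5.26 and 82.9% ± 4.58 (SD, n = 4 each) differed by 3.79 points, less than the spread of either genotype (exact permutation p = 0.371).

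The members were also compared between genotypes in FBs, ECs and MACs, where several of them are not read as expression of those cells (see the ratios to CM transcripts). By edgeR, 0 of the 8 members were called in FBs (0.371% of all genes), in ECs (0.411%) or in MACs (0.341%). DESeq2 called 0 members in each of them too, and 0 members had an unadjusted edgeR p under 0.05. Over all genes edgeR called 66, 66 and 52 and DESeq2 359, 279 and 374, and 1726, 1307 and 1380 genes had an unadjusted edgeR p under 0.05. Slc25a5 had the highest fitted fold change of the members in each type. It was at 54.0, 74.0, 76.0 and 15.9 CPM in WT and 110, 129, 141 and 9.14 CPM in Taz-KO FBs, with a log2 fold change of 0.74 (SE 0.68, edgeR adjusted p = 0.903). In ECs it was at 66.2, 96.3, 85.5 and 21.7 CPM in WT and 220, 156, 161 and 26.8 CPM in Taz-KO (1.00, SE 0.58, adjusted p = 0.792). In MACs it was at 56.2, 72.8, 77.1 and 19.6 CPM in WT and 257, 134, 150 and 21.0 CPM in Taz-KO (1.26, SE 0.61, adjusted p = 0.594). In each type 3 Taz-KO mice were above all WT mice, and Taz-KO replicate 5301 and WT replicate 5356 were both far below the rest of their group. Ckm was fitted at -0.81 in FBs, -0.66 in ECs and -0.20 in MACs, Ckmt2 at -0.91, -0.78 and -0.44, and Slc25a4 at -0.83, -0.65 and -0.28. Ak1, called in CMs, was fitted at -0.46 (SE 0.53) in FBs, -0.26 (SE 0.58) in ECs and 0.00 (SE 0.48) in MACs. Their standard errors were 0.48 or more, against 0.17 for Ak1 in CMs.

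**Figure D3:**
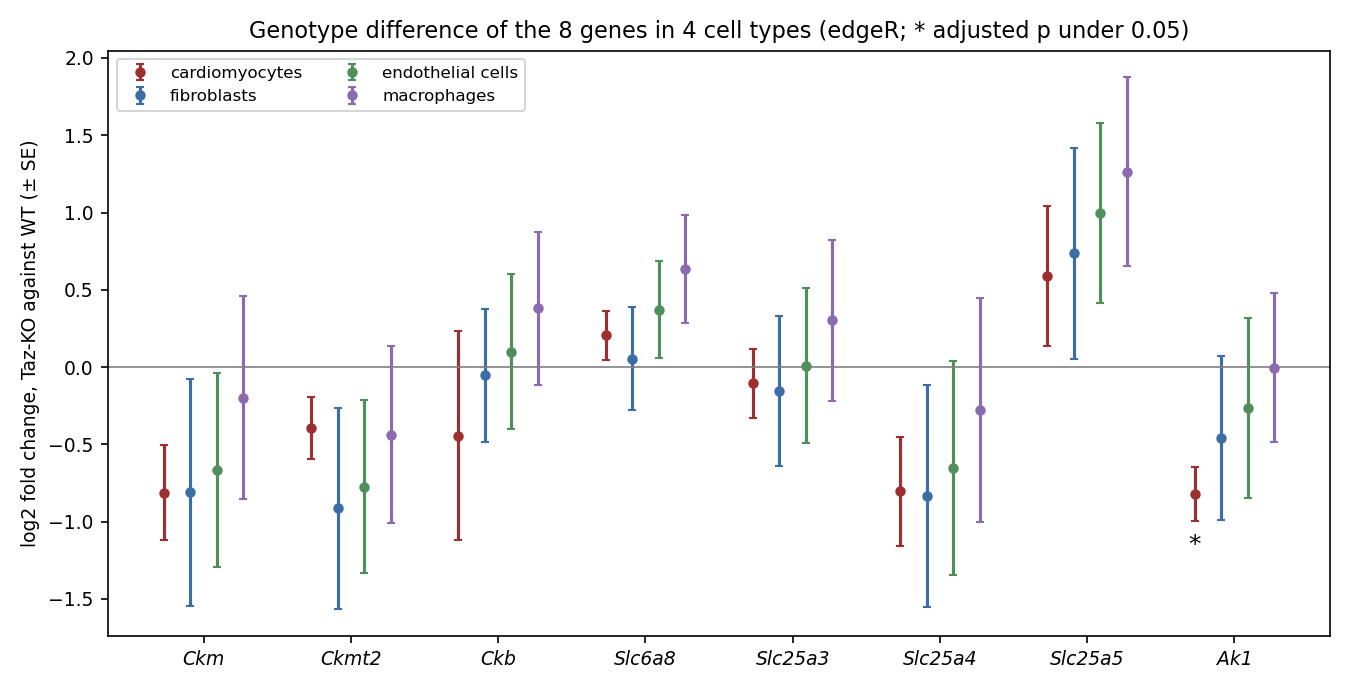
Log2 fold change of Taz-KO against WT with its standard error (y axis, edgeR) for each of the 8 genes in CMs (dark red), FBs (blue), ECs (green) and MACs (purple), 4 mice per genotype. The star marks Ak1 in CMs, at -0.82, the only value with an adjusted p under 0.05, and Slc25a5 is fitted above 0 in all 4 cell types.

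Whether the genotype effect differed between CMs and another type of the same mice was tested on the difference of log2(CPM + 1) per mouse. By limma, 0 of the 8 members differed between CMs and FBs (3.95% of all genes), CMs and ECs (1.57%) or CMs and MACs (1.26%). Ckb had the largest contrast with MACs and with ECs among the 8. Its effect in CMs minus that in MACs was -0.78 on the log2 scale (SE 0.27, limma adjusted p = 0.231). The corresponding values were -0.59 (SE 0.20, adjusted p = 0.233) against ECs and -0.60 (SE 0.30, adjusted p = 0.370) against FBs. For Ak1 the difference was -0.17 (SE 0.52, adjusted p = 0.929) against FBs, so the call of Ak1 in CMs and its absence in FBs were not shown to differ. Without Taz-KO replicate 5301, 1 member differed between CMs and MACs, Ak1, at -1.06 (SE 0.22, limma adjusted p = 0.0260), where 5.79% of all genes differed.

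The members differed in where their transcripts were most frequent. Ckmt2 and Slc6a8 were higher in CMs than in most other types of the same mouse, and Ckb was lower in CMs than in every one of the types compared. Ckmt2 was higher in CMs than in FBs in 8 of 8 mice, than in ECs in 7 of 8 and than in MACs in 8 of 8, with median log2 differences of 0.90, 0.53 and 0.53. For Slc6a8 the counts were 8, 8 and 7 of 8 mice, with medians of 0.57, 0.49 and 0.76. Ckb was higher in CMs in 0 of 8 mice against FBs, ECs and MACs alike, with medians of -1.67, -1.59 and -1.54. Slc25a5 was higher in CMs in 1, 0 and 0 mice, Slc25a4 in 2, 1 and 2, Ckm in 2, 1 and 1, Slc25a3 in 4, 2 and 3 and Ak1 in 3, 2 and 4 of 8 mice.

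**Figure D4:**
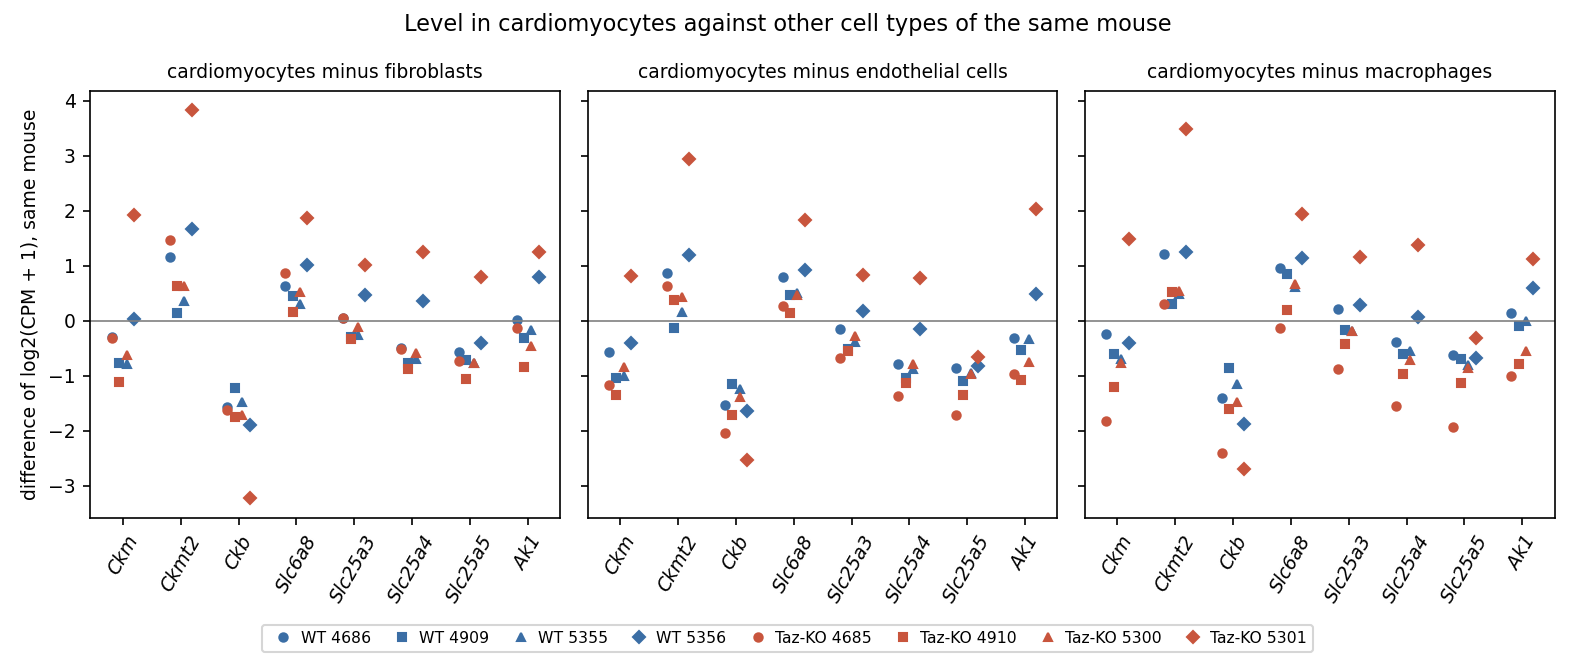
Difference of log2(CPM + 1) between CMs and FBs (left), ECs (middle) or MACs (right) of the same mouse (y axis) for the 8 genes (x axis), 1 point per mouse, WT in blue and Taz-KO in red. Ckb lies below 0 in every mouse of each panel, Ckmt2 lies above 0 in 8, 7 and 8 mice, and Taz-KO replicate 5301 (red diamond) is the highest point for Ckm, Ckmt2, Slc6a8, Slc25a3, Slc25a4, Slc25a5 and Ak1.

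Across all 8 named types, the order of the medians over mice put Ckmt2 and Slc6a8 highest in CMs, at 856 and 32.8 CPM, and Ckb lowest in CMs, at 18.7 CPM. The medians of Ckm, Slc25a3, Slc25a4 and Ak1 were highest in ECs and that of Slc25a5 in pericytes. For each of the 8 genes, the ranges over mice of every pair of neighbours in this order overlapped.

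Outside CMs, levels of Ckm, Slc25a4 and Ckmt2 followed those of other abundant CM transcripts. Per 100 UMIs of 10 mature transcripts of CM cytoplasm (Myl2, Myl3 and others), Ckm had a median of 2.45 UMIs in FBs, 2.40 in ECs and 2.49 in MACs over the 8 mice. The barcodes with the fewest UMIs gave 2.40 and CMs 1.16. For Slc25a4 the medians were 7.10 in FBs, 7.07 in ECs, 7.07 in MACs and 7.03 in those barcodes, against 3.75 in CMs. Ckmt2 was at 3.63, 3.69, 3.65 and 3.60 in the same order and at 4.89 in CMs. Ckm, Slc25a4 and Ckmt2 thus stood to the other CM transcripts in FBs, ECs and MACs as in the barcodes with the fewest UMIs, and their levels there are not read as expression of these cells. Ak1 was at 0.379 in FBs, 0.330 in ECs and 0.334 in MACs, against 0.327 in those barcodes. Slc25a5, whose ratio differed by genotype, averaged 0.343 in FBs, 0.341 in ECs and 0.361 in MACs of WT mice against 0.314 in the barcodes, and 0.893, 1.01 and 1.01 against 0.879 in Taz-KO mice. The source of the RNA outside CMs was not tested. Ckb and Slc25a3 were higher on this scale in FBs, ECs and MACs than in the barcodes with the fewest UMIs. Ckb was at 0.468 in FBs, 0.313 in ECs and 0.375 in MACs, against 0.262 in those barcodes and 0.0992 in CMs. Slc25a3 was at 2.79, 2.53 and 2.56, against 2.19 and 1.59. Slc6a8 was at 0.184, 0.158 and 0.157, against 0.134 and 0.168, so its median in CMs was below that in FBs on this scale.

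In FBs the sum of the 10 mature transcripts separated the same libraries that stood apart for the members. It was 4504 CPM in WT replicate 5356 and 1595 CPM in Taz-KO replicate 5301, and 9095 to 23657 CPM in the other 6 mice. In CMs it was 16850 to 23200 CPM in WT, lowest in replicate 5356, and 12800 to 19693 CPM in Taz-KO. There replicate 4685 was the lowest Taz-KO mouse, and replicate 5301 was at 15343 CPM. Per 100 of these UMIs, Slc25a5 was at 0.343 ± 0.0204 in WT and 0.893 ± 0.269 in Taz-KO FBs (SD, n = 4 each). The 10 transcripts were all fitted lower in Taz-KO FBs and CMs, which raises such a ratio there. In CMs the Slc25a5 values, 0.156 ± 0.0593 and 0.350 ± 0.174, overlapped. Ak1 in CMs, at 0.245 ± 0.0211 in WT and 0.201 ± 0.0625 in Taz-KO, also overlapped on this scale, where its difference was within the spread of the Taz-KO mice. Slc6a8 in CMs, at 0.141 ± 0.0115 in WT and 0.233 ± 0.0467 in Taz-KO, did not overlap on this scale. Nor did it in the barcodes with the fewest UMIs. The CPM of Slc6a8 in CMs did overlap, and these ratios were not tested.

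Atrial CMs, cluster 30 of 615 nuclei with 7 mice compared, differed from the other CMs of the same mouse. The other CMs included cluster 10, which had the atrial markers Myl7 and Myl4 among its leading genes. Ckmt2 was lower in them in 7 of 7 mice, with medians of 598 and 878 CPM and a median log2 difference of -0.64. Slc6a8 was also lower in 7 of 7 mice, at 15.7 and 31.8 CPM (-0.87). Slc25a4 and Ckb were higher in 6 of 7 mice each, by medians of 0.16 and 0.41. These are descriptions of clusters made from the same nuclei, with no test.

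Genes of the same pathways outside the 8 members were read from lists in the CM fit. Of the other mitochondrial carriers and channels of nucleotides, 2 of 11 fell and 1 rose (27.3% called, beside 15.4% of all genes tested). Slc25a42, a carrier of coenzyme A, went from 79.4 ± 14.2 CPM in WT to 44.6 ± 5.24 CPM in Taz-KO (SD, n = 4 each), a log2 fold change of -0.96 (SE 0.18, edgeR adjusted p = 0.00486). Slc25a23, a calcium-dependent carrier of ATP-Mg and phosphate, fell by 0.60 (SE 0.17, adjusted p = 0.0355) on the log2 scale, and Slc25a33, a carrier of pyrimidine nucleotides, rose by 0.93 (SE 0.20, adjusted p = 0.0103). The median of the list was 0.01, against 0.00 over all genes tested.

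Among the 17 genes of AMP sensing and disposal, 2 fell and 1 rose, with a median of -0.08. The 17.6% called is near the 15.4% of all genes. Nt5c1a, the cytosolic nucleotidase of heart and skeletal muscle that turns AMP into adenosine, had the largest fold change of the lists. It went from 7.44 ± 1.95 to 2.58 ± 0.451 CPM (SD, n = 4 each), a log2 fold change of -1.62 (SE 0.28, edgeR adjusted p = 0.00349). The beta subunits of AMP-activated protein kinase went opposite ways, Prkab1 at -0.78 (adjusted p = 0.0243) and Prkab2 at 0.63 (adjusted p = 0.0197).

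Of the 8 adenylate kinases other than Ak1, 1 rose and 0 fell (12.5% called, below the 15.4% of all genes), with a median of 0.32. Ak5, a cytosolic form best known from brain, went from 1.74 ± 0.665 to 4.07 ± 1.39 CPM (1.09, SE 0.30, edgeR adjusted p = 0.0336). Ak3, a form of the mitochondrial matrix, was at -0.37 (edgeR adjusted p = 0.0985). Of the 3 genes of creatine synthesis and further creatine kinases, 0 were called, with a median of -0.28. Ckmt1, the ubiquitous mitochondrial creatine kinase, was at 0.82 (adjusted p = 0.321) and Gatm, which makes the precursor of creatine, at -0.28 (adjusted p = 0.587). Of 20 nuclear-encoded genes of ATP synthase, 17 subunits and the assembly factors Atpaf1 and Atpaf2 and the inhibitor Atpif1, 0 were called. In the fit 18 of the 20, the 17 subunits among them, lay below 0, with a median of -0.36, but with the mitochondrial share as a covariate 10 of 20 did, 8 of them subunits, with a median of 0.00. Atp5a1, the alpha subunit, was at -0.67 (adjusted p = 0.174) and Atp5l at -0.48 (adjusted p = 0.360). The 10 mature CM transcripts had a median of -0.46, and 1 of them fell, Myl2, the ventricular regulatory light chain of myosin (-1.04, adjusted p = 0.0389). Myl3 was at -1.14 (adjusted p = 0.0608).

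With the mitochondrial share as a covariate, Slc25a42, Slc25a23, Slc25a33, Nt5c1a and Ak5 still had an edgeR adjusted p under 0.05, and Prkab1 (0.0599), Prkab2 (0.0590) and Myl2 (0.151) did not. In FBs, ECs and MACs, edgeR called 0 genes of each of these lists.

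**Figure D5:**
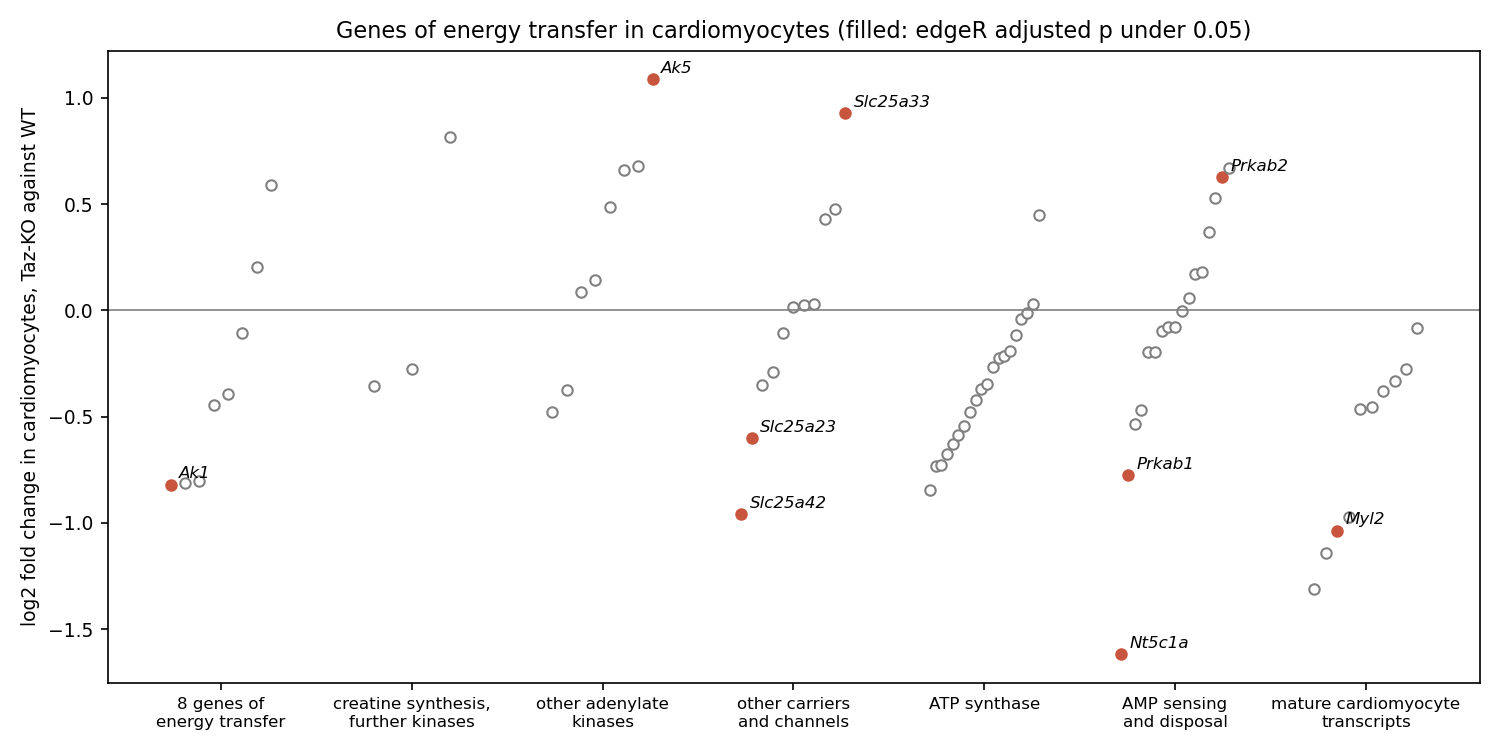
Log2 fold change of Taz-KO against WT in CMs (y axis, edgeR) of the 8 members and of the genes tested in 6 lists (x axis), 1 point per gene in order of fold change, filled and named where the adjusted p was under 0.05. Ak1 is filled in the first column, 18 of the 20 ATP synthase points lie below 0 in this fit without the covariate with none filled, and Nt5c1a at -1.62 is the lowest point.

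The genes most like each member were found by Pearson r of log2(CPM + 1) over 63 sums of a mouse and a named cell type, among 8014 genes with a mean of at least 20 CPM. The sums share libraries, so the values are descriptions. Ckm was most like Myl2 (0.979), Tnni3 (0.972) and Actc1 (0.969), and Slc25a4 like Tnni3 (0.991), Myl2 (0.986) and Atp5h (0.980), all genes of the sarcomere except the ATP synthase subunit Atp5h. Ak1 was most like Ckm (0.943), Myl2 (0.934) and Tnnc1 (0.925). Ckmt2 stood nearest to Tnnt2 (0.966), Pln (0.964) and Atp2a2 (0.960), the last of which is the calcium pump of the sarcoplasmic reticulum and Pln its inhibitor. Slc25a3 was most like Atp5f1 (0.976), Cryab (0.964) and Ndufb4 (0.963). Slc25a5 was most like Chchd10 (0.973) and the ribosomal protein genes Rps13 (0.957) and Rps15a (0.950), and Ckb like Qpct (0.966), Tubb5 (0.957) and Ptov1 (0.954). Slc6a8 had the least close neighbours, Fndc5 (0.880), Ndrg4 (0.847) and Klhdc2 (0.834).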

How the data were processed

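Counts of UMIs, not normalized, were deposited by the authors for 8 libraries, 1 per mouse, made from nuclei with the 10x Genomics 3′ v3.1 kit. The submitters' processing notes name Cell Ranger 6.0.1 and mm10, and the study's methods say that intronic reads were counted; no correction for ambient RNA or doublets precedes the counts. Of 169193 barcodes, 167495 had at least 800 UMIs and 250 genes, and 16231 scored as doublets were removed. Clustering used Python 3.11.15 (numpy 2.4.6, scipy 1.17.1, scikit-learn 1.9.0, python-igraph 0.11.9), with the members, lists and Taz left out of the variable genes. A cluster was named if its marker score was at least 1 and led the next by 0.6. SoupX, DoubletFinder and MAST were not used here.

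UMIs were summed per mouse and cell type without mitochondrial genes and compared by the quasi-likelihood test of edgeR 4.0.16 (R 4.3.3; TMM, filterByExpr, Benjamini-Hochberg over all genes of a type); printed CPM precede TMM. Differences between types were tested with limma 3.58.1, shares by exact permutation over mice. The code was tested on simulated data. Alternatives were other scaling (RLE), DESeq2 1.42.0, no filter, stricter thresholds, a mouse or both small libraries left out, a mitochondrial covariate, ambient subtraction, other choices of nuclei, and a pseudocount of 5 for differences; the subtraction based on mitochondrial UMIs and all alternatives for Taz were added after the data were seen. Genes named are the 8 members, Taz, the list genes called in CMs (the 2 with the lowest p if fewer than 2 were called) and the 3 genes most like each member. Members and lists were chosen with earlier results of these data known. 0 per-sample columns were left unused.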

Additional observations from a re-analysis of the deposited data

Results flagged for a closer look

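The Slc25a5 share of Slc25a4 and Slc25a5 UMIs did not overlap between genotypes in unnamed nuclei or in the barcodes with the fewest UMIs, some of which are also in named types. In unnamed nuclei it averaged 10.7% in Taz-KO and 4.56% in WT, and in the barcodes with the fewest UMIs 12.2% in Taz-KO and 4.38% in WT. In the latter barcodes Slc6a8 averaged 38.6 CPM in Taz-KO, with every Taz-KO mouse, the lowest at 34.7 CPM, above the WT range of 15.8 to 31.9 CPM. The values of Taz-KO replicates 5301 and 4685, 43.7 and 36.2 CPM, rest on 13 and 26 UMIs. None of these differences was tested.

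Of 70 groups of 4 mice, 6 had 1 mouse that stood apart by Dixon's test at the 95% level, where chance gives about 1 in 20. Taz-KO replicate 5301 was the lowest of its group for Ckmt2 in MACs (71.5 CPM) and, in ECs, for Slc6a8 (10.3 CPM), Slc25a3 (106 CPM), Slc25a4 (146 CPM) and Ak1 (4.13 CPM). WT replicate 5356 was the lowest of the WT CMs for Slc25a3 (187 CPM).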

How the results depend on the processing

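The number of members called in CMs was 1 by edgeR, 2 by DESeq2 and 3 without WT replicate 5356. It was 0 at an adjusted p of 0.001 with an absolute log2 fold change of 0.58 (2.17% of all genes), and 0 of 7 tested after the subtraction based on mitochondrial UMIs (17.1% of all genes). With 1 mouse left out it ranged from 1 to 3. In FBs, ECs and MACs it was 0 in every alternative run. Between CMs and MACs, 1 member differed without Taz-KO replicate 5301, and the range with 1 mouse left out was 0 to 1. Taz in CMs stayed below 0 but lost its call at the stricter threshold (-0.66) and after 0.2 of the UMIs were subtracted (-0.60), and ranged from -0.73 to -0.52 with 1 mouse left out. Only without WT replicate 4686 (-0.67, edgeR adjusted p = 0.0542) did it lose its call among those.

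The Slc25a5 share difference ranged from 4.77 to 6.47 points with 1 mouse left out. The Ckb share difference was -0.943 points after 0.2 of the UMIs were subtracted and ranged from -0.455 to 3.54 points with 1 mouse left out. The Ckmt2 share difference was -1.94 points after the subtraction based on mitochondrial UMIs and ranged from 1.66 to 5.96 points with 1 mouse left out. The cause of these changes was not tested.

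Over all genes, DESeq2 called 3590 in CMs, 359 in FBs, 279 in ECs and 374 in MACs, against 2852, 66, 66 and 52 by edgeR. The stricter threshold left 402, 2, 3 and 2. With 1 mouse left out the counts were 1895 to 2690, 7 to 136, 15 to 163 and 2 to 218, highest outside CMs without Taz-KO replicate 5301. Outside CMs they were 112, 104 and 188 without both small libraries, 91, 115 and 119 with no filter, 117, 69 and 40 with the covariate, 0, 10 and 0 after 0.2 of the UMIs were subtracted, 3, 0 and 0 after the other subtraction, 22, 3 and 3 in the 10000 barcodes with the most UMIs, and 74, 117 and 342 with nuclei typed one by one. The Ckb share gave no value after the subtraction based on mitochondrial UMIs, which left too few Ckb UMIs. Nuclei under 5% mitochondrial UMIs could not be fitted in FBs and ECs, and left out 1 mouse in CMs and 4 in MACs. No paired analysis was run, because the labels do not pair WT mice with Taz-KO mice. Few UMIs limit the shares of Taz-KO replicate 5301 outside CMs, such as 31 UMIs of the carrier pair in mesothelial cells.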
